A study of Mus musculus with 6 samples.

Results

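Neutrophil granule genes were followed in cochlear tissue of 12-month-old mice with and without *Cmah*, the gene for the enzyme that makes the sialic acid Neu5Gc. The members were 10 genes chosen by symbol: *Mpo*, *Prtn3*, *Ctsg*, *Elane*, *Ngp*, *Camp*, *Ltf*, *S100a8*, *S100a9* and *Lcn2*. All probes that carried a member's symbol were taken, which gave 12 probes of 9 genes. *Elane* was listed only under its older symbol *Ela2* and was added through its gene ID, so that the 10 genes had 13 of the 25697 probes on the array. Total RNA was hybridised to Illumina MouseRef-8 BeadChips, 3 arrays of wild type (WT) mice and 3 of *Cmah*-null mice, all labelled C57BL/6, and the labels name no treatment for either group. The null allele is in all cells of the mouse from the germ line on, so marrow cells carry it as the cochlea does. Each value is the log2 of a probe's bead signal after quantile normalization, which gives every array the same distribution of signals. A probe was called detected on an array where its detection p, the chance of so bright a signal among negative control beads, was under 0.05.

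Neutrophils are made in bone marrow, and they fill their granules in a fixed order as they mature. Promyelocytes make the azurophil granules, which hold myeloperoxidase and the serine proteases proteinase 3, cathepsin G and neutrophil elastase. Myelocytes and metamyelocytes then make the specific granules, which hold lactoferrin, the cathelicidin precursor, neutrophilic granule protein and lipocalin 2. The calprotectin subunits S100A8 and S100A9 are cytosolic proteins of later cells. RNA for the azurophil proteins is therefore mostly found in marrow, while that for calprotectin is also carried by neutrophils of blood. The cochlea lies within bone, and the labels describe the samples as cochlear tissue. In such a bulk sample, fewer cells of a type and less RNA per cell cannot be told apart.

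The arrays had up to 15223 detected probes each, and the median number of beads behind a value was 32 to 39. The *Cmah* probe, measured near background, had log2 signals of 7.27, 7.28 and 7.87 in WT replicates 1, 2 and 3 and of 7.95, 7.98 and 7.27 in *Cmah*-null replicates 1, 2 and 3. Its detection p was under 0.05 for WT replicate 3 and for *Cmah*-null replicates 1 and 2. The sources used here do not say whether its target lies in the disrupted part of the gene, so it checked no label. The columns of the *Cmah*-null arrays are headed "old" in the deposited tables and were matched to the labels by replicate number after the WT columns had been matched by name. WT and *Cmah*-null below mean the libraries so labelled, and all directions rest on those labels. Between replicates 1 and 2 of the *Cmah*-null group the SD of the log2 difference over probes was 0.13, where the other pairs gave 0.31 to 0.44 without *Cmah*-null replicate 3 and 0.56 to 0.64 with it. *Cmah*-null replicate 3 thus stood apart over the whole array, and it had the fewest detected probes (13873). Nothing in the labels says whether replicates were separate animals or pools, so p-values measure the spread between these samples, which may be technical. Markers of the inner ear were present: of 18 cochlear genes on the array, 10 were detected on all 6 arrays and 5 on none.

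No member gene was called between the genotypes. At the study's rule, a change of at least 1.5-fold with an unadjusted p under 0.05, 0 of 10 genes passed by their brightest probe, where 2.71% of all probes on the array passed (limma). Their adjusted p ran from 0.594 to 0.991, no member had an unadjusted p under 0.05, and no probe on the array had an adjusted p under 0.05 (0.0% of probes) although 2199 had an unadjusted one. By group means alone, 7 genes were higher in *Cmah*-null samples and 3 (*Ltf*, *S100a8* and *S100a9*, all higher with median scaling) were lower, while 50.5% of all probes were higher. A mean difference of at least 1.5-fold upwards was seen for 5 of the 10 (*Mpo*, *Prtn3*, *Elane*, *Ngp* and *Lcn2*), against 2.67% of all probes, and downwards for 0 of the 10, against 3.28% (5.95% in either direction). The median log2 fold change of the members was 0.52, beside 0.00 for all probes. The members also varied more among arrays: their median range over the 6 arrays was 1.95 on the log2 scale, beside 0.84 for the 12410 probes detected on every array. All 10 genes were detected on all 6 arrays by their brightest probe. The shares and the median over all probes also include probes not detected on every array. The count of calls was not stable: it was 4 of 10 (*Mpo*, *Prtn3*, *Elane* and *Lcn2*) with arrays scaled to 1 median, where the calls over all probes went from 697 to 2488, and 4 of 10, the same genes, without WT replicate 2, where the calls over all probes were 429. It was 1 (*Lcn2*) without *Cmah*-null replicate 3, where they were 882.

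**Figure D1:**
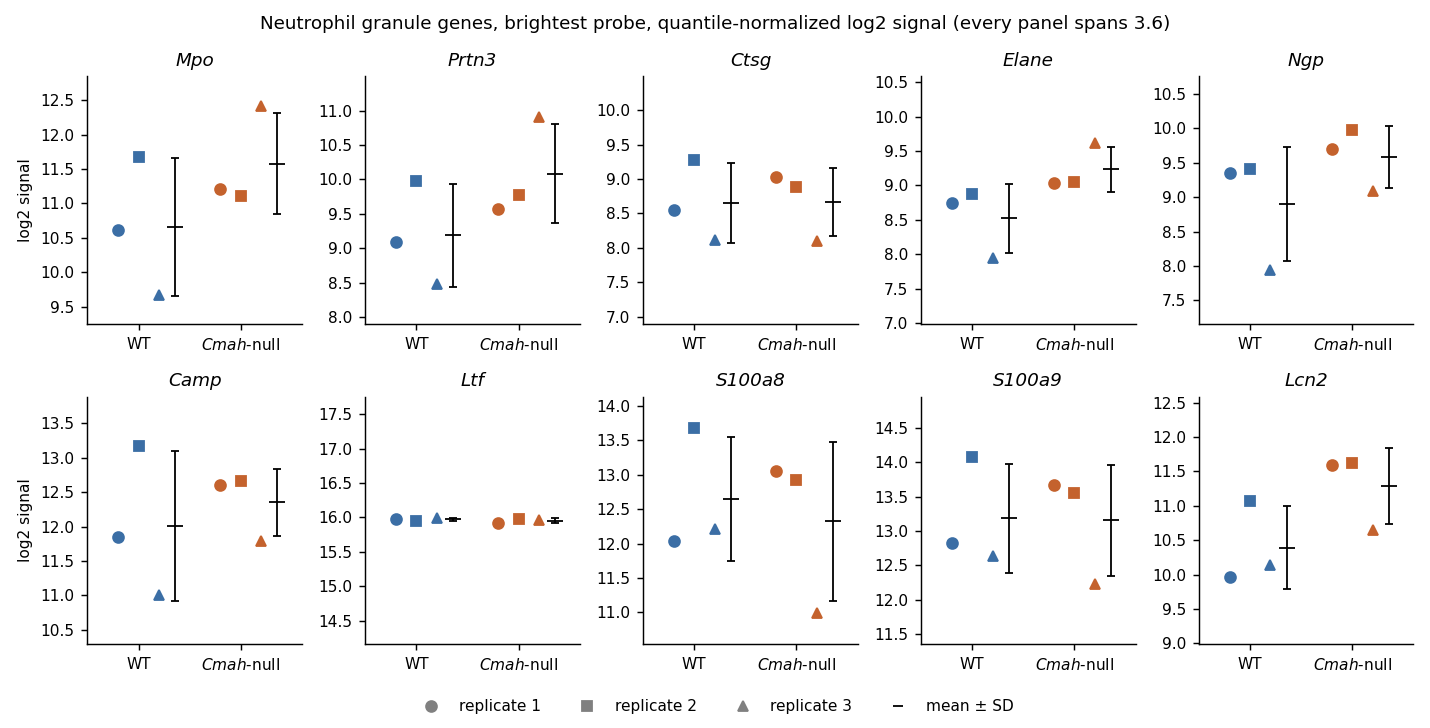
Log2 quantile-normalized signal (vertical axis) of the brightest probe of each member gene on the 3 WT and the 3 *Cmah*-null arrays; points are single arrays, with the mean and SD (n = 3) beside them, and every panel spans the same height. *Mpo*, *Prtn3* and *Elane* were highest on *Cmah*-null replicate 3 (12.42, 10.91 and 9.62), the array on which *S100a8* was lowest (10.99).

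The probes for the members are 50 bases long. All but those of *Ltf* and *S100a9* are shown, because each value below is the signal of a single such sequence. No pair of member probes shared a run of more than 8 bases. The neighbouring and related genes *Prtn3* and *Elane*, 3137 bases apart on chromosome 10 in the RefSeq annotation of GRCm38.p6, were thus read by different sequences, as were *S100a8* and *S100a9*, 22595 bases apart on chromosome 3. Probes were compared only with each other, not with the RNA of other members. *Ngp*, *Camp* and *Ltf* lie on chromosome 9, *Mpo* on 11, *Ctsg* on 14 and *Lcn2* on 2.
Mpo, probe ILMN_2600421: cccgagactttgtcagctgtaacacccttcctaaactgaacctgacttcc
Mpo, probe ILMN_2925094: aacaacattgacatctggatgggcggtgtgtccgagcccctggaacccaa
Mpo, probe ILMN_2719256: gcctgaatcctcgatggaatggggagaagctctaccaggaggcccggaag
Prtn3: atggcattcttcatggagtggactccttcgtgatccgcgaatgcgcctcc
Elane: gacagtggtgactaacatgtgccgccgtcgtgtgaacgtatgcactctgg
Ctsg: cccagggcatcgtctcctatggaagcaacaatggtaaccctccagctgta
Ngp: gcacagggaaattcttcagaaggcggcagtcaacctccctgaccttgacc
Camp: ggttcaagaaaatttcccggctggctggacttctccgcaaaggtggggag
S100a8: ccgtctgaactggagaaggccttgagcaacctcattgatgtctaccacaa
Lcn2: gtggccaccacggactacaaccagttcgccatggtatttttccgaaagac

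Of the early granule genes, *Mpo*, which encodes the peroxidase that makes hypochlorous acid, had log2 signals of 10.62, 11.68 and 9.67 in WT replicates 1, 2 and 3 and of 11.20, 11.11 and 12.42 in *Cmah*-null replicates 1, 2 and 3 by its brightest probe (ILMN_2600421). The groups overlapped: WT replicate 2 lay above *Cmah*-null replicates 1 and 2. The WT mean of 10.66 ± 1.01 compared with a *Cmah*-null mean of 11.58 ± 0.73 (SD, n = 3 each), a log2 fold change of 0.92 (SE 0.60, limma adjusted p = 0.708). Between the lowest and the highest array *Mpo* differed 6.71-fold. Its dimmer probes kept the same highest and lowest array. ILMN_2925094 read 7.92, 8.52 and 7.35 in WT and 8.25 and 8.09 in *Cmah*-null replicates 1 and 2, with *Cmah*-null replicate 3 above the mean of these by 0.84. Its log2 fold change was 0.52 (SE 0.37), and it was not detected on WT replicate 3. ILMN_2719256 read 7.51, 7.55 and 7.17 in WT and 7.61, 7.59 and 7.72 in *Cmah*-null samples. It too was not detected on WT replicate 3, its range over all arrays was narrow, and its groups did not overlap, for which the exact permutation test gave the smallest p that 3 against 3 arrays allow (two-sided p = 0.1).

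*Prtn3*, which encodes proteinase 3, followed *Mpo* array by array. It read 9.10, 9.98 and 8.48 in WT replicates 1, 2 and 3 and 9.57, 9.77 and 10.91 in *Cmah*-null replicates 1, 2 and 3. Again a WT array, replicate 2, lay among the *Cmah*-null values. The log2 fold change was 0.90 (SE 0.50, limma adjusted p = 0.673), from a WT mean of 9.19 ± 0.75 to a *Cmah*-null mean of 10.08 ± 0.72 (SD, n = 3 each). *Elane*, which encodes neutrophil elastase, read 8.74, 8.88 and 7.95 in WT and 9.04, 9.05 and 9.62 in *Cmah*-null samples. It was the only member whose groups did not overlap by the brightest probe, 1 of 10 genes, where 9.11% of all probes lay without overlap in that direction and 7.33% in the other (exact permutation test, two-sided p = 0.1). Its log2 fold change was 0.71 (SE 0.29, limma adjusted p = 0.594).

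*Ctsg*, which encodes cathepsin G, the remaining azurophil protease, had another order of arrays. It read 8.55, 9.28 and 8.12 in WT replicates 1, 2 and 3 and 9.03, 8.88 and 8.10 in *Cmah*-null replicates 1, 2 and 3. Its lowest value was thus on the array where *Mpo*, *Prtn3* and *Elane* were highest. The group means differed by 0.02 on the log2 scale (SE 0.37, limma adjusted p = 0.991).

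Of the late granule genes, *Ngp*, which encodes neutrophilic granule protein, read 9.35, 9.40 and 7.94 in WT replicates 1, 2 and 3 and 9.70, 9.97 and 9.09 in *Cmah*-null replicates 1, 2 and 3. *Cmah*-null replicates 1 and 2 lay above every WT array, and replicate 3 lay inside the WT range. The log2 fold change was 0.69 (SE 0.46, limma adjusted p = 0.715). *Camp*, which encodes the precursor of the antimicrobial peptide CRAMP, read 11.84, 13.17 and 11.01 in WT and 12.61, 12.66 and 11.79 in *Cmah*-null samples. Its lowest and highest arrays were both WT, 4.48-fold apart, and the *Cmah*-null arrays lay between them. The log2 fold change was 0.34 (SE 0.58, limma adjusted p = 0.888).

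*Ltf*, which encodes the iron-binding protein lactoferrin, gave little information on the array. Its brightest probe (ILMN_2754364) read 15.98, 15.95 and 15.99 in WT and 15.92, 15.98 and 15.96 in *Cmah*-null samples. It ranked between 5 and 9 among all probes on every array, at the top of the signal range, and the 6 values lay within 0.07 of each other. The dimmer probe (ILMN_2889020) read 8.88, 9.49 and 9.85 in WT and 9.78, 9.69 and 9.92 in *Cmah*-null samples, with a log2 fold change of 0.39 (SE 0.25, limma adjusted p = 0.705). The positions that the deposited table gives for the pair lie 57252 bases apart, further than the 23475 bases of the gene in RefSeq. The build of those positions is not given in the sources used here, so which of these probes reads *Ltf* RNA was not settled.

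*S100a8*, which encodes a subunit of calprotectin, was the member that set *Cmah*-null replicate 3 furthest below its group. It read 12.04, 13.69 and 12.22 in WT replicates 1, 2 and 3 and 13.05, 12.93 and 10.99 in *Cmah*-null replicates 1, 2 and 3. The third *Cmah*-null array was the lowest of all and WT replicate 2 the highest. The means differed by -0.33 (SE 0.70, limma adjusted p = 0.917), and by 0.14 with median scaling. *S100a9*, the partner subunit, read 12.83, 14.08 and 12.63 in WT and 13.67, 13.56 and 12.22 in *Cmah*-null samples, with the same highest and lowest array and a log2 fold change of -0.03 (SE 0.54, limma adjusted p = 0.991), which was 0.45 with median scaling. *Lcn2*, which encodes the siderophore-binding protein lipocalin 2, read 9.96, 11.08 and 10.14 in WT and 11.59, 11.62 and 10.65 in *Cmah*-null samples. *Cmah*-null replicates 1 and 2 lay above all WT arrays and replicate 3 below WT replicate 2. The log2 fold change was 0.89 (SE 0.40, limma adjusted p = 0.610). The standard error over beads was at most 9.13% of a member's signal on any array. That is far smaller than the differences of *S100a8*, *S100a9* and *Lcn2* among arrays, but it covers only the noise within an array.

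**Figure D2:**
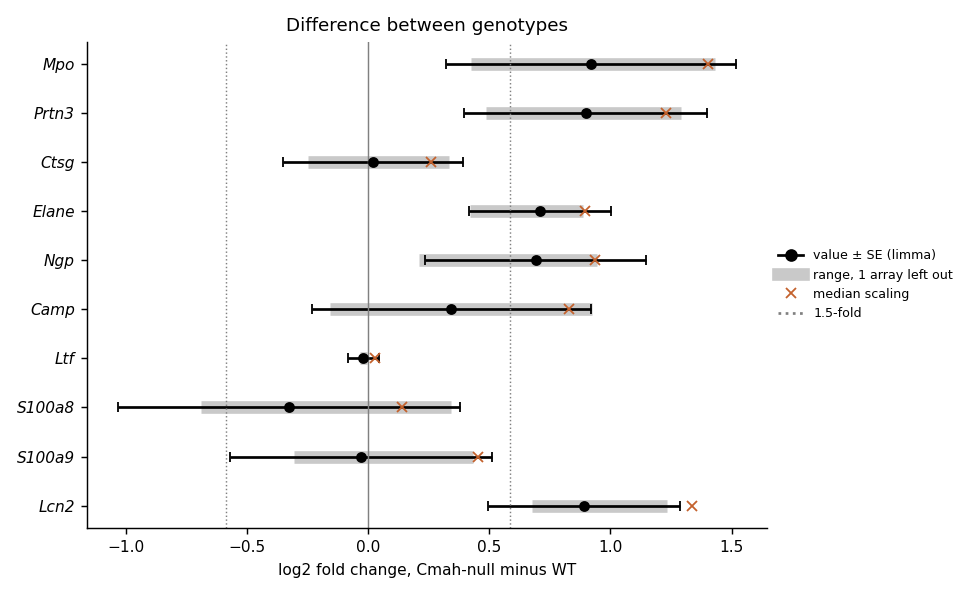
Log2 fold change, *Cmah*-null over WT (horizontal axis), of the brightest probe of each member with its limma standard error (n = 3 arrays per group), the range with 1 array left out (grey bar), the value with median scaling (cross) and the 1.5-fold limits (dotted). The values run from -0.33 for *S100a8* to 0.92 for *Mpo*, and the grey bars of *Ctsg*, *Camp*, *S100a8* and *S100a9* reach across 0.

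Early and late granule genes were compared on each array through deviations: each gene's log2 value minus its own mean over the 6 arrays, averaged over *Mpo*, *Prtn3* and *Ctsg* (early) or over *Ngp*, *Camp* and *Ltf* (late). Deviations were used because levels of different probes are not on 1 scale. The early mean was -0.38, 0.51 and -1.05 in WT replicates 1, 2 and 3 and 0.13, 0.11 and 0.67 in *Cmah*-null replicates 1, 2 and 3. The late mean was -0.07, 0.38 and -0.82 in WT and 0.28, 0.41 and -0.18 in *Cmah*-null samples. In WT both stages moved together, highest on replicate 2 and lowest on replicate 3. On *Cmah*-null replicate 3 they parted, with *Mpo* and *Prtn3* at their highest, *Ctsg* at its lowest and the late mean below 0. With neqc background correction the early mean was 0.66 both there and on WT replicate 2.

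**Figure D3:**
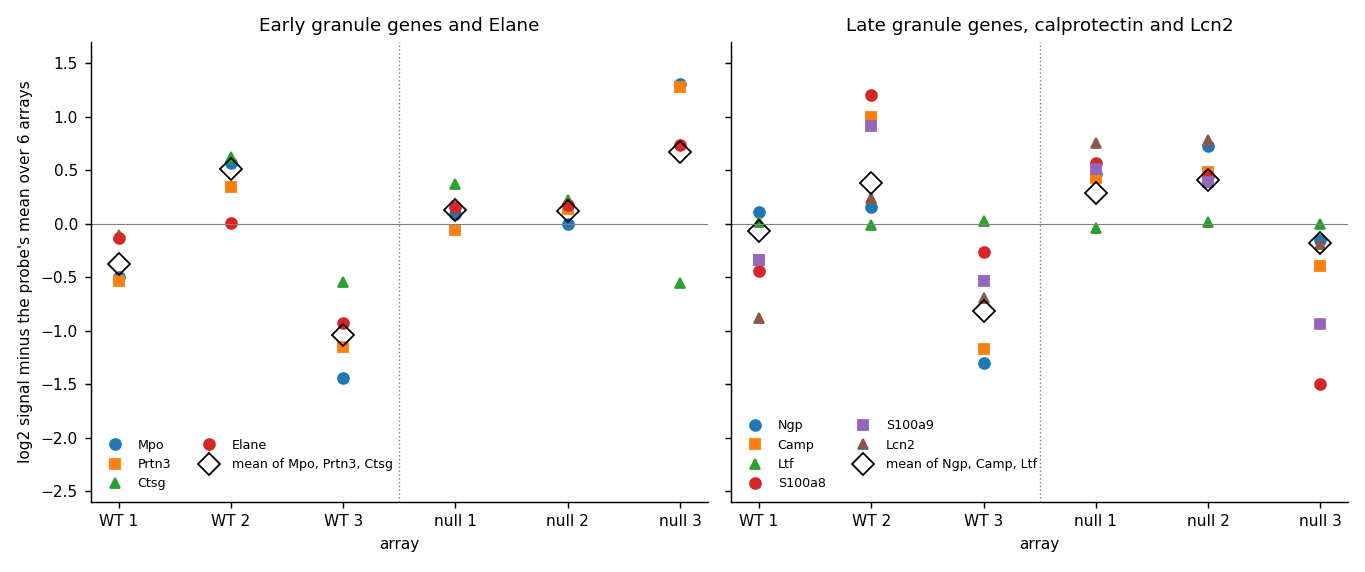
Deviation of each gene from its own 6-array mean (vertical axis, log2) on the 6 arrays, early granule genes and *Elane* on the left and late granule genes, calprotectin and *Lcn2* on the right, with open diamonds for the means of *Mpo*, *Prtn3* and *Ctsg* and of *Ngp*, *Camp* and *Ltf*. On *Cmah*-null replicate 3 the early mean stands at 0.67 and the late mean at -0.18.

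Early minus late came to -0.31, 0.13 and -0.23 in WT replicates 1, 2 and 3 and to -0.15, -0.29 and 0.85 in *Cmah*-null replicates 1, 2 and 3. The genotypes overlapped, with means of -0.14 ± 0.23 for WT and 0.14 ± 0.63 for *Cmah*-null arrays (SD, n = 3 each), and the difference of 0.27 was smaller than the spread within the *Cmah*-null group. That difference rested on 1 library: without *Cmah*-null replicate 3 it was -0.08. The balance of stages on that array lay 1.08 above the mean of *Cmah*-null replicates 1 and 2, or 2.11-fold. It was 0.94 there when *Ltf* was left out, with the other arrays between -0.49 and 0.19, and 1.47 when *Ctsg* was left out of the early genes. The difference between genotypes was 0.10 without *Ltf*, 0.14 with its dimmer probe and 0.57 without *Ctsg*. These alternatives were chosen after the data had been seen. With neqc background correction and with median scaling the value on this array was 0.83 under each.

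Gene by gene, *Cmah*-null replicate 3 differed from the mean of *Cmah*-null replicates 1 and 2 by 1.26 for *Mpo*, 1.24 for *Prtn3* and 0.57 for *Elane* on the log2 scale. On the other side stood *S100a8* at -2.00, *S100a9* at -1.39, *Lcn2* at -0.96, *Ctsg* at -0.85, *Camp* at -0.85 and *Ngp* at -0.75. The members thus fell to 2 sides on this array, with 3 above and 6 below, and *Ltf* near 0 at 0.01. The sizes depended on the normalization. For the early mean the difference from *Cmah*-null replicates 1 and 2 was 0.55, but 0.13 with median scaling. For the late mean it was -0.53, and -0.85 with median scaling. *Elane* then read 9.43 on this array, beside 9.33 and 9.34 on replicates 1 and 2. These are differences between single arrays of 1 group and have no test. Over all 6 arrays, the highest value of a member was on WT replicate 2 for 4 genes and on *Cmah*-null replicate 3 for 3, and the lowest was on WT replicate 3 for 5 and on *Cmah*-null replicate 3 for 3.

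How alike a pair of members was across the 6 arrays was measured as the root-mean-square difference of their deviations, in log2 units, where 0 means the same profile. *Mpo* and *Prtn3* were the closest pair at 0.17, and *Elane* lay 0.33 from *Prtn3* and 0.42 from *Mpo*. *Ctsg* lay 0.87 from *Mpo* and 0.83 from *Prtn3*, but 0.24 from *S100a9* and 0.34 from *Camp*. Its profile was thus nearer to that of the late and calprotectin genes than to that of the other azurophil genes. The calprotectin subunits lay 0.28 apart, *Camp* and *Ngp* 0.41, and *Mpo* and *S100a8* were the farthest pair at 1.29. All genes share the same 6 libraries, so these distances describe those libraries and were given no test.

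**Figure D4:**
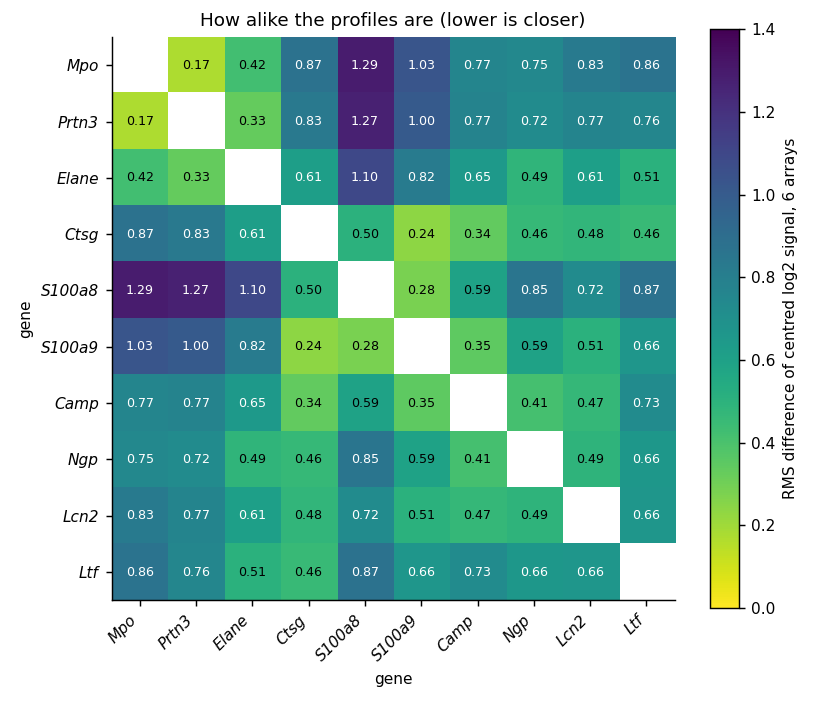
Root-mean-square difference (log2) between the 6-array profiles of each pair of member genes, after each gene was centred on its own mean; smaller values mean more alike profiles. *Mpo* and *Prtn3* are the closest pair (0.17) and *Mpo* and *S100a8* the farthest (1.29), while *Ctsg* lies nearest to *S100a9* (0.24).

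Among 12399 other probes detected on all arrays, those nearest to the mean profile of the early genes were *Tnfaip2* (0.18), *Tnc* (0.21), *Gtse1* (0.26), *Plk1* (0.27) and *Nup210* (0.27). *Tnc* encodes the matrix protein tenascin C, and *Plk1* encodes a kinase of mitosis. Those nearest to the late genes were *Tspan33* (0.20), *E2f1* (0.21), the probe listed as ENSMUSG00000043795 (0.22), *Coro1a* (0.23) and *Trem3* (0.23). *Trem3* encodes a receptor of myeloid cells, *Coro1a* an actin-binding protein of leukocytes and *E2f1* a transcription factor of the cell cycle. With so many candidates and 6 arrays, near matches are found for many profiles, and the order was not tested.

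The promoters of members that moved together, stretches of RefSeq (GRCm38.p6) that span the start of each gene, are shown with *Ctsg*, which did not move with *Mpo*, and with *Ngp* and *S100a9*. They were searched on both strands for a PU.1-type motif, GAGGAAG, and for a C/EBP-type motif, TTGCNNAA, each named for a factor of myeloid cells, and each motif was counted whether or not another overlapped it. Capitals mark the matches of either motif on either strand. All 10 genes had an entry in this table.
Mpo promoter (chr11:87793534-87793833, plus strand): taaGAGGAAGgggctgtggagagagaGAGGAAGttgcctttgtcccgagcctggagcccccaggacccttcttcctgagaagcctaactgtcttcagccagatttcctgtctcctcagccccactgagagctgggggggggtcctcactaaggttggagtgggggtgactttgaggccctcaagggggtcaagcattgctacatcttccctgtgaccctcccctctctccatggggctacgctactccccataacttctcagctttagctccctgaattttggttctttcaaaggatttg
Prtn3 promoter (chr10:79879417-79879716, plus strand): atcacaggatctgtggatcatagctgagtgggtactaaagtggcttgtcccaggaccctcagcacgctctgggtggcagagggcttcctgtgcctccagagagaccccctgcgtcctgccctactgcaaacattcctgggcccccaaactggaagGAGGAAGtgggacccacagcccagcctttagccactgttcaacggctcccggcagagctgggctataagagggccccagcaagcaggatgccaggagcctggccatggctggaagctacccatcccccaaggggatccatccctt
Elane promoter (chr10:79886062-79886361, plus strand): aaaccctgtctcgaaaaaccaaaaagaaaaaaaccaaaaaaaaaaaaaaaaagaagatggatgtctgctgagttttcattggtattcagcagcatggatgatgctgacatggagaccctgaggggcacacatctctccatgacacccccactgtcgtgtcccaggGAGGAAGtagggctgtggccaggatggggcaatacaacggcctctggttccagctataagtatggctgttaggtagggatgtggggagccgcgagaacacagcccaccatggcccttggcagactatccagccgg
Ctsg promoter (chr14:56102525-56102824, minus strand): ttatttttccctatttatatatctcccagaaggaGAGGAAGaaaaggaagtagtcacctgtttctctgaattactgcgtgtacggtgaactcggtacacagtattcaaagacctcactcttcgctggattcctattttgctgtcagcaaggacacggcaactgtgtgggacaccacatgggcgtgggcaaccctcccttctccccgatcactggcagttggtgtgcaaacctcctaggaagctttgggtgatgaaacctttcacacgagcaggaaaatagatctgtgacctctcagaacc
Ngp promoter (chr9:110419558-110419857, plus strand): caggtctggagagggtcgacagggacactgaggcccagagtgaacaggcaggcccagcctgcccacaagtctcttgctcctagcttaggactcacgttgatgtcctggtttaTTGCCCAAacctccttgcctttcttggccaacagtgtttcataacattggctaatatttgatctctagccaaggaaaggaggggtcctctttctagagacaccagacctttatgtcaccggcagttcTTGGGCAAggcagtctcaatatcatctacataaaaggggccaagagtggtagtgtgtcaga
S100a9 promoter (chr3:90695672-90695971, minus strand): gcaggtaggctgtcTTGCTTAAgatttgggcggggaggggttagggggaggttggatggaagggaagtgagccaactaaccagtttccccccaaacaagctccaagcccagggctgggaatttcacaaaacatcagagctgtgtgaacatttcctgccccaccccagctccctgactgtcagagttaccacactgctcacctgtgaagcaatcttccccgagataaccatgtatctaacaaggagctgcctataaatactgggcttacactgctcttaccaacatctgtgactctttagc

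GAGGAAG was found in 6 of the 10 member promoters and in 13.6% of 32851 promoters of the same length. The 6 were those of the azurophil genes *Mpo*, *Prtn3*, *Ctsg* and *Elane*, and of *S100a8* and *Lcn2*. *Ctsg* thus carried the same letters as *Mpo* and *Prtn3* while its profile over arrays differed from theirs. TTGCNNAA was found in 4 of the 10, *Ngp*, *Ltf*, *S100a9* and *Lcn2*, and in 10.8% of all promoters. TGTGGT, a Runx-type motif, was in 3 of 10 member promoters (16.8% of all) and TATAAA, the TATA box, in 3 of 10 (13.6% of all). These matches describe letters in a window and are not binding sites.

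Other genes of neutrophils were read from a wider list of 81 symbols, of which 66 were on the array. By the study's rule 6 of these were called higher and 1 lower in *Cmah*-null samples, where 1.3% of all probes were called higher and 1.41% lower. An unadjusted p under 0.05 was found for 12 of the 66, where 2199 of the 25697 probes on the array had one. None of the 66 had an adjusted p under 0.05. The median log2 fold change was 0.07, beside 0.00 for all probes, and 44 genes were higher and 22 lower by their means. The genes of azurophil granules and progenitors had no call among 10 on the array, and their median was -0.02. All but 1 of the calls were among 44 genes of specific and gelatinase granules and mature neutrophils, and the other was among 14 regulators of granulocyte development.

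The called genes of the specific and mature group were *Alox5ap*, needed for leukotriene synthesis, with a log2 fold change of 1.38 (SE 0.39), *Slpi*, a protease inhibitor, at 1.21 (SE 0.48), *Pglyrp1*, a granule protein that binds peptidoglycan, at 0.96 (SE 0.19), *Cd177*, a surface protein of neutrophils, at 0.88 (SE 0.32), and *Il8rb*, the older symbol of the chemokine receptor gene *Cxcr2*, at 0.66 (SE 0.23). The gene called lower was *Dgat2*, an enzyme of triglyceride synthesis also used in fat and liver, at -1.24 (SE 0.35). The regulator called was *Csf2ra*, a subunit of the GM-CSF receptor, at 1.03 (SE 0.18). *Il8rb* was detected on 3 arrays. The mean deviation of the 14 regulators on *Cmah*-null replicate 3 was 0.43, where the other arrays lay between -0.16 and -0.03. Of the 14, 9 were highest there, among them *Runx1*, which read 9.72 there and at most 8.29 elsewhere. Only 1 was lowest there, *Csf2rb* at 7.27, and it was detected on just 1 of the arrays. *Cmah*-null replicate 3 also stood apart over all probes.

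Lists of markers of other cells of marrow, bone and blood also differed among the arrays, and their part in the values above was not tested. Erythroid genes (14 on the array, 10 detected on all arrays, 3 on none) had mean deviations of -0.15 to 0.83 in WT and -0.63 to -0.03 in *Cmah*-null samples. WT replicate 2, where *S100a8*, *S100a9*, *Camp* and *Ctsg* were highest, was also the highest for erythroid genes, and *Cmah*-null replicate 3 was the lowest. Bone genes (12 on the array, 9 detected on all arrays, 2 on none) ran from -0.42 to 0.76 in WT and from -0.22 to -0.11 in *Cmah*-null samples, and were highest on WT replicate 2 and lowest on WT replicate 3, where the late granule mean was also lowest. Eosinophil, mast cell and basophil genes (9 on the array, 3 detected on all arrays, 2 on none) ran from -0.34 to 0.28 in WT and from -0.66 to 0.38 in *Cmah*-null samples, with their lowest value on *Cmah*-null replicate 3. Proliferation genes (10 on the array, 4 detected on all arrays, 4 on none) ran from -0.21 on WT replicate 3 to 0.52 on WT replicate 2 and lay at -0.19 on *Cmah*-null replicate 3. Megakaryocyte and platelet genes (6 on the array, all 6 detected on all arrays) ran from -0.89 to 0.06 in WT and from 0.18 to 0.43 in *Cmah*-null samples, without overlap. Of these 6, all had a higher mean in *Cmah*-null samples, and the median log2 fold change was 0.78. By the study's rule 4 were called higher (*Treml1*, *Gp5*, *Itga2b* and *Gp1bb*), against 1.3% of all probes, and none had an adjusted p under 0.05. *Mpo*, *Prtn3*, *Elane*, *Ngp* and *Lcn2* also had higher means in *Cmah*-null samples, and a link between these and the platelet genes was not tested. B cell genes were at 0.06, macrophage genes at -0.17 and cochlear genes at -0.14 on *Cmah*-null replicate 3, each inside the range of the other arrays. The high balance of early over late granule genes on *Cmah*-null replicate 3 thus stood beside low erythroid and low eosinophil list means. Of the 14 erythroid genes, 7 were lowest on that array and 1 highest. Of the 9 eosinophil, mast cell and basophil genes, 7 were lowest there and 0 highest. By their means, the wider stage lists did not show a high balance of early over late on *Cmah*-null replicate 3. Their mean deviations were -0.02 for the 10 azurophil and progenitor genes and 0.01 for the 44 specific and mature genes. These means include genes near background: 6 and 24 genes were detected on all arrays, and 1 and 11 on none. Over the genes detected on all arrays the means were -0.01 and 0.06. Genes within a list also differed. Of the azurophil and progenitor genes 2 were highest on that array and 2 lowest, and of the specific and mature genes 11 were highest and 8 lowest.

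**Figure D5:**
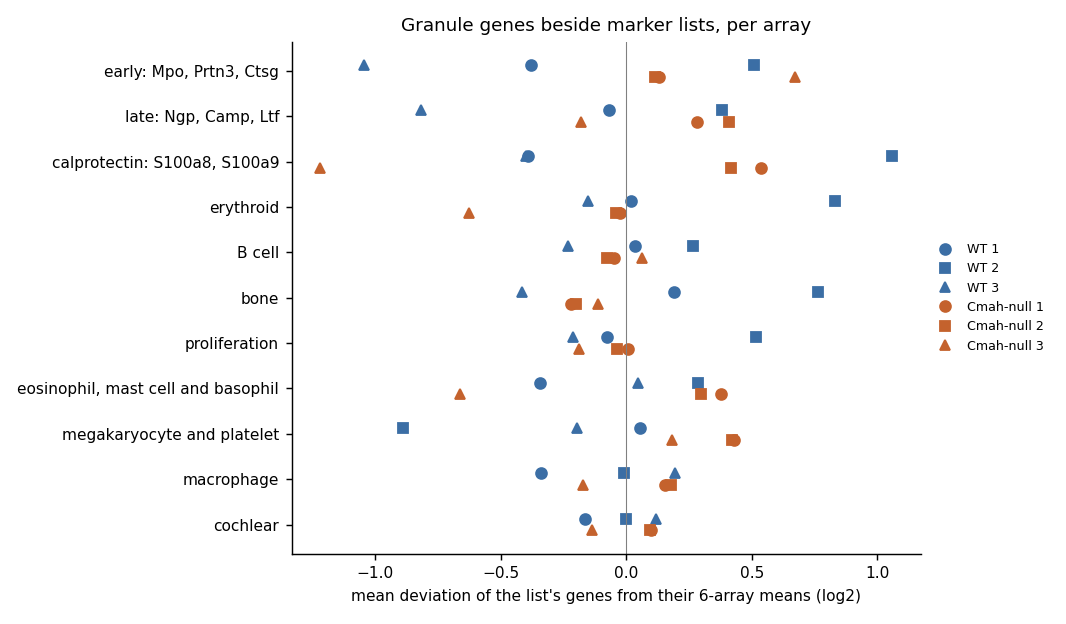
Mean deviation from each gene's own 6-array mean (log2) of the granule genes and of the marker lists on each array (horizontal axis), 1 symbol per array. Erythroid genes are highest on WT replicate 2 (0.83) and lowest on *Cmah*-null replicate 3 (-0.63).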

How the data were processed

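Total RNA from cochlear tissue was hybridised to Illumina MouseRef-8 v2.0 BeadChips, 1 array per sample. The authors deposited bead intensity, its detection p-value, the bead standard error of each signal, the bead number, and log2 values, which equal the quantile-normalized log2 of the raw signals to within 5e-07. Their own comparison columns (fold change, LPE statistic, adjusted p, means and SDs) hold findings and were not used, nor were 12 columns that repeat raw values. The log2 values were fitted in R 4.3.3 with limma 3.58.1 (lmFit, eBayes), 3 arrays against 3, two-sided, with no covariate and Benjamini-Hochberg adjustment over all 25697 probes. A call needed 1.5-fold with an unadjusted p under 0.05. The brightest probe by mean stood for a gene. The scripts were tested on simulated data. Members and lists were chosen with earlier results of these data known. Named genes were all members, the 5 probes nearest to the early and to the late profile, and called genes of the wider lists, at most 6 per list by size of change. Alternatives were neqc (offset 16), median scaling, the mean of a gene's probes, exact symbols only, *Cmah*-null replicates 1 and 2 averaged, a detection filter, a trended robust prior, a bead-number block, a replicate block and each array left out. The number of arrays limits the precision. Replicate numbers pair nothing by the labels.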

Additional observations from a re-analysis of the deposited data

How the results depend on the processing

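No member was past an adjusted p of 0.05 in any of 15 alternatives. Under the study's rule the number called was 4 of 10 with median scaling (*Mpo*, *Prtn3*, *Elane*, *Lcn2*), 2 with a trended robust prior (*Elane*, *Lcn2*) and 0 to 4 with 1 array left out, the 4 without WT replicate 2. Without *Cmah*-null replicate 3 only *Lcn2* was called. Replicate numbers did not pair the arrays: 2 of 6 correlated best with their own number, and with the replicate block 2 members were called (*Ngp*, *Lcn2*). The wider list had 7 calls, 11 with neqc and 12 with median scaling, and 5 to 10 with 1 array left out. Of all probes 697 were called, and neqc gave 1482, median scaling 2488, the bead-number block 1728 and the leave-one-out fits 429 to 1037. The trended robust prior gave 798 and the replicate block 811. Median scaling moved the median of detected probes from 0.03 to 0.30, and *Ltf* (0.031) and *S100a8* (0.14) lay below the latter.

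*Mpo*, *Prtn3*, *Elane*, *Ngp* and *Lcn2* kept a positive log2 fold change in all alternatives. The small differences of the others changed sign: *Ctsg* to -0.10 with the bead-number block, -0.12 with *Cmah*-null replicates 1 and 2 averaged and between -0.25 and 0.33 with 1 array left out; *Camp* between -0.16 and 0.93 with 1 array left out; *Ltf* to 0.031 with median scaling and 0.18 with the mean of its probes; *S100a8* to 0.14 and *S100a9* to 0.45 with median scaling, and between -0.69 and 0.34 and between -0.30 and 0.43 with 1 array left out. Early minus late was -0.08 to 0.49 with 1 array left out and 0.08 to 0.57 otherwise. The cause was not tested for any of these.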
